A study of Mus musculus with 6 samples.

Results

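Receptors for immunoglobulin G (IgG) and their partner chains were examined in macrophages sorted from the hearts of legumain knockout mice (Lgmn KO) and of wild-type controls (WT). The group holds the 6 genes Fcgr1, Fcgr2b, Fcgr3, Fcgr4, Fcer1g and Fcgrt, which were chosen by name, out of 34745 genes in the deposited table. All 6 were abundant enough to be among the 12546 genes tested. Legumain is an asparagine-specific protease of the lysosome, and its loss is compared here for the transcripts of these receptors.

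Both groups were C57BL/6 mice of 8 weeks, and the series design places every sample after myocardial infarction, although the labels mention coronary ligation and sham surgery alike. There were 3 Lgmn KO libraries, numbered 1, 2 and 4, and 3 WT libraries, numbered 1, 2 and 3. The labels give neither the part of Lgmn that was removed nor whether the loss was limited to some cells. They do not say that the libraries are from different animals, so the spread that enters each p-value may be a technical one. Total counts lay between 19546253 and 24086976 per library. Lgmn itself was at 78.7, 88.5 and 83.5 CPM (counts relative to the library size, scaled with TMM factors) in Lgmn KO and 2205, 2692 and 2277 CPM in WT, which fits the labels. The digested hearts were stained for CD45, CD64, CD11b and dead cells, and the macrophage genes Cd68, Csf1r, Adgre1 and Mertk had counts in every library, with differences between the groups that are given beside Fcgr1.

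The design of the sort bears on these genes directly. CD64 is the protein of Fcgr1, so cells were stained for a product of one of the 6 genes. Before that, they were incubated with an antibody against CD16/32, the proteins of Fcgr3 and Fcgr2b, which keeps Fc receptors from holding the staining antibodies. The labels do not give the cut on each stain, and the transcripts of the other stained proteins are given below beside Fcgr1.

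IgG Fc receptors let macrophages take up particles and immune complexes that antibodies have coated. In mice the activating receptors, encoded by Fcgr1, Fcgr3 and Fcgr4, pair with the common gamma chain, encoded by Fcer1g, whose tyrosine motif (ITAM) recruits the kinase Syk. Fcgr2b encodes the inhibitory receptor, whose own tyrosine motif (ITIM) recruits the lipid phosphatase SHIP-1, and Fcgrt encodes the heavy chain of the neonatal receptor FcRn, which returns IgG from acidic endosomes to the surface.

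Every one of the 6 genes had a negative log2 fold change in Lgmn KO against WT, and none passed an adjusted p of 0.05 in edgeR's quasi-likelihood test with Benjamini-Hochberg adjustment over all 12546 tested genes. The threshold was passed by 0.789% of all tested genes, with 0.478% lower and 0.311% higher in Lgmn KO. The largest differences were those of Fcgr1 (log2 fold change -1.09) and Fcgr4 (-0.89), followed by Fcgrt (-0.48), Fcgr2b (-0.43), Fcer1g (-0.21) and Fcgr3 (-0.14). The median over the 6 genes was -0.45, whereas the median of all tested genes was -0.0021. An unadjusted p under 0.05 was found for 4 of the 6 genes and for 17.5% of all tested genes. DESeq2 called 2 of them lower, Fcgr2b (adjusted p = 0.00432) and Fcgr4 (adjusted p = 0.0365), while it called 6.41% of all tested genes. Leaving out WT replicate 1 also changed the outcome: edgeR then called 5 of the 6 genes lower, all but Fcgr3, while 4.99% of all tested genes were called. Without any other 1 library edgeR called 0 of the 6, and it called 0.202%, 0.0468% and 0.211% of all tested genes without Lgmn KO replicates 1, 2 and 4, 0.275% without WT replicate 2 and 0.110% without WT replicate 3. With the shared replicate numbers 1 and 2 as a block it also called 0 of the 6, and 0.262% of all tested genes. At an adjusted p of 0.1 it called 1 of the 6, Fcgr2b, and 4.01% of all tested genes.

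**Figure D1:**
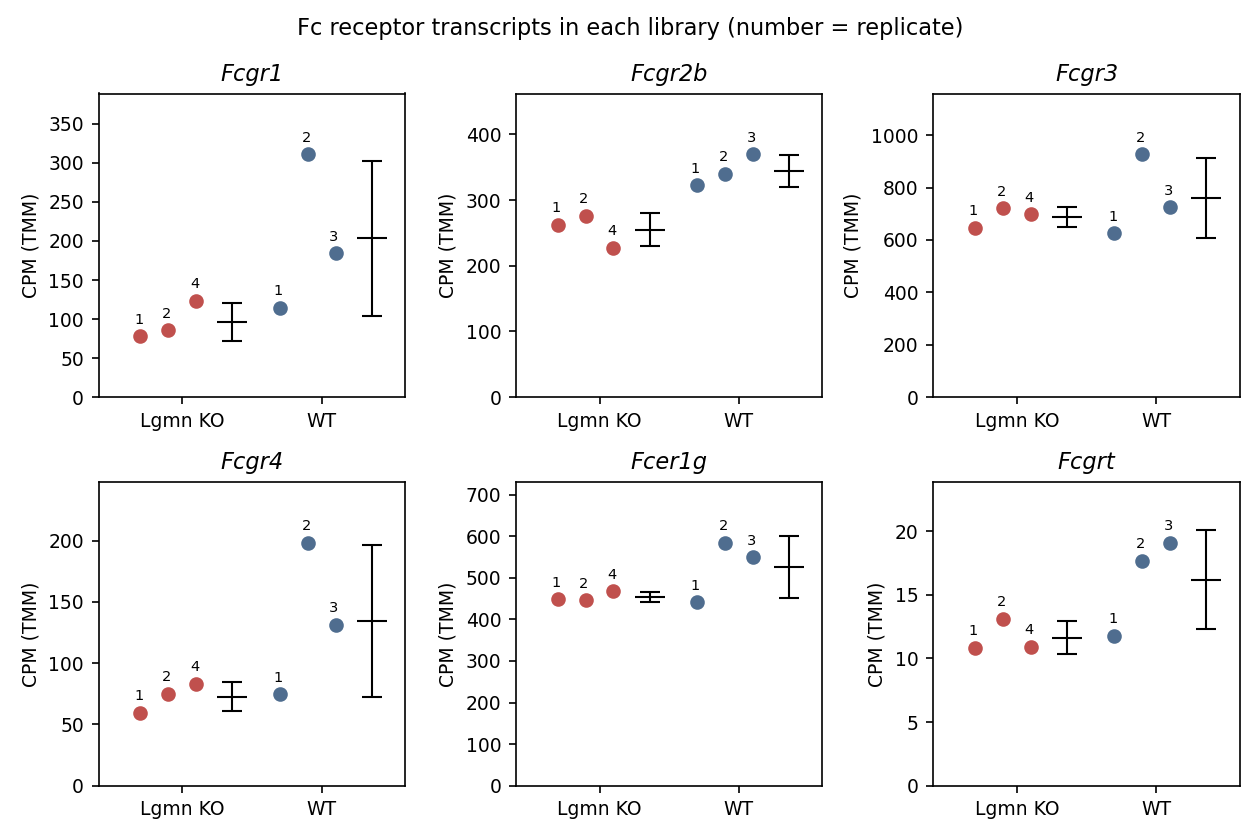
CPM (TMM-scaled) of each Fc receptor gene in the 3 Lgmn KO libraries (red, left) and the 3 WT libraries (blue, right), with the replicate number above each point and the mean and SD beside it. WT replicate 2 is the highest library for Fcgr1, Fcgr3, Fcgr4 and Fcer1g, WT replicate 1 lies among or near the Lgmn KO libraries for all genes but Fcgr2b, and the groups are separate for Fcgr2b.

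Fcgr1 encodes CD64, the high-affinity receptor, which binds single IgG molecules and is used as a marker of macrophages. It lies on the minus strand of chromosome 3 (chr3:96282909-96293969 in the table, read as GRCm38) and is protein coding. Its level was 78.2, 85.8 and 123 CPM in Lgmn KO replicates 1, 2 and 4, against 114, 311 and 185 CPM in WT replicates 1, 2 and 3. The groups overlapped, because Lgmn KO replicate 4 lay above WT replicate 1, and the WT libraries spread far more widely than those of Lgmn KO. The means were 95.8 ± 24.2 CPM in Lgmn KO, against 203 ± 99.7 CPM in WT (n = 3 each, SD). The log2 fold change was -1.09 with a standard error of 0.35 and a 95% interval of -1.89 to -0.28 (edgeR quasi-likelihood test, adjusted p = 0.170). Without WT replicate 2 it was -0.64 (adjusted p = 0.363), and without WT replicate 1 it was -1.37 (adjusted p = 0.0349). Among all tested genes 3.39% had a lower log2 fold change.

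The transcripts of the other stained proteins had log2 fold changes of smaller size than that of Fcgr1, but no test compared the genes. Ptprc, which encodes CD45, was at 401, 411 and 460 CPM in Lgmn KO, against 330, 464 and 473 CPM in WT, and the log2 fold change was 0.01 (adjusted p = 0.989). Itgam, which encodes CD11b, was at 681, 737 and 715 CPM in Lgmn KO, against 723, 1083 and 937 CPM in WT, and the log2 fold change was -0.36 (adjusted p = 0.236, edgeR quasi-likelihood test). WT replicate 2 held the highest Itgam level, as it did for Fcgr1, and the Ptprc ranges of the groups overlapped. Genes that mark macrophages were in part lower in value beside Fcgr1 and Fcgr4. Csf1r, the receptor of the growth factor that macrophages depend on, was at 486, 555 and 609 CPM in Lgmn KO, against 686, 1116 and 964 CPM in WT. The groups did not overlap, and the log2 fold change was -0.74 (adjusted p = 0.0916 with edgeR, 0.00182 with DESeq2). Adgre1, which encodes F4/80, had -0.51 (adjusted p = 0.189), the uptake receptor Mertk -0.24 (adjusted p = 0.250) and the lysosomal protein Cd68 0.18 (adjusted p = 0.292, edgeR quasi-likelihood test). In RNA from a sorted population, fewer cells of a type and less RNA per cell cannot be told apart.

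Fcgr4 encodes a receptor of intermediate affinity found on mouse myeloid cells. It lies on the plus strand of chromosome 1 (chr1:171018920-171029761). Its level was 59.5, 75.0 and 83.1 CPM in Lgmn KO, against 74.5, 198 and 131 CPM in WT. Again WT replicate 1 stood inside the Lgmn KO range and WT replicate 2 was the highest library. The means were 72.5 ± 12 CPM in Lgmn KO, against 135 ± 62.0 CPM in WT (n = 3 each, SD), and the log2 fold change was -0.89 with a standard error of 0.32 and a 95% interval of -1.63 to -0.15 (edgeR quasi-likelihood test, adjusted p = 0.212). Without WT replicate 2 it was -0.51 (adjusted p = 0.467), and without WT replicate 1 it was -1.18 (adjusted p = 0.0246).

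Fcgr1 and Fcgr4 followed each other closely from library to library although they lie on different chromosomes. The likeness of 2 genes was measured as the root mean square difference of their log2 CPM over the 6 libraries, each centred on its own mean. Between Fcgr1 and Fcgr4 it was 0.16, which made Fcgr4 the 9th nearest of 9136 genes to Fcgr1, among genes with a mean of at least 5 CPM. Counted from Fcgr4, Fcgr1 was the 18th nearest. Fcgr2b, Fcgr3, Fcer1g and Fcgrt were at a distance of 0.46 to 0.56 from Fcgr1. These distances describe 6 libraries and carry no test, and a gene's genotype difference is part of them. They also grow with the size of the differences: Fcgr3 had the WT libraries in the same order as Fcgr1, yet lay at 0.54. The genes nearest to Fcgr1 were Dab2, an endocytic adaptor (0.09), Clec12a, an inhibitory lectin receptor (0.10), and Cfp, which encodes properdin of the complement system (0.13). The genes nearest to Fcgr4 were Ifitm3, an interferon-induced antiviral membrane protein (0.08), Serpinb9, an inhibitor of granzyme B (0.10), and again Cfp (0.10).

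**Figure D2:**
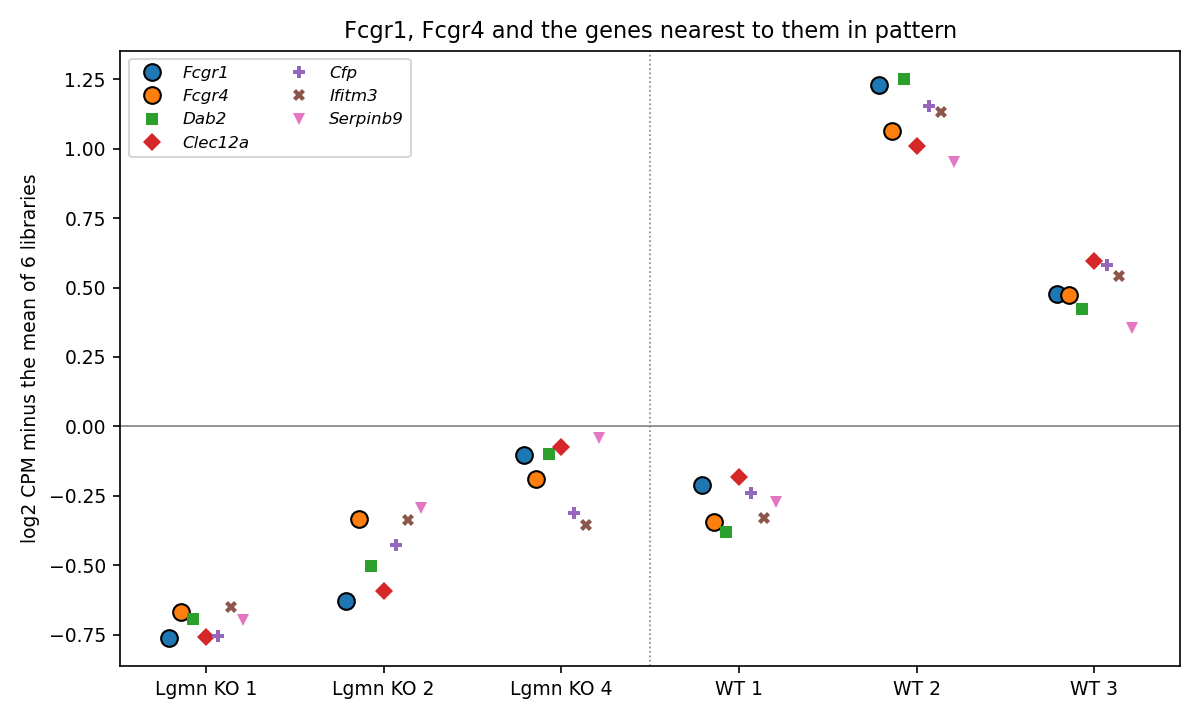
Log2 CPM minus the mean of the 6 libraries for Fcgr1, Fcgr4 (outlined circles) and the genes nearest to each in pattern, by library, with the Lgmn KO libraries left of the dotted line and the WT libraries right of it. Fcgr1 stood at 1.23 in WT replicate 2 and at -0.21 in WT replicate 1, which lay below Lgmn KO replicate 4 at -0.10.

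Because these genes were alike in pattern, the 250 bases before the RefSeq start of each are shown, with those of Fcgr2b, which lay further from both. The sequences are from RefSeq (GRCm38.p6), each on the strand of its gene, for Fcgr1 chr3:96293970-96294219, for Fcgr4 chr1:171018676-171018925 and for Fcgr2b chr1:170976072-170976321. Capitals mark matches, on either strand, to 3 motifs: the gamma-activated site TTCNNNGAA, a core of the interferon-stimulated response element, GAAA and GAAA with 2 bases of any kind between, and GAGGAA, a core of the site of PU.1, a myeloid transcription factor.
Fcgr1: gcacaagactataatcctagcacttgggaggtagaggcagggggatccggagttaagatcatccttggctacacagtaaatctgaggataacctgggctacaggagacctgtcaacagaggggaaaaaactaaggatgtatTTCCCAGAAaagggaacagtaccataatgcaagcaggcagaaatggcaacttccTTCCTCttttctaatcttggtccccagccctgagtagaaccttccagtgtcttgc
Fcgr4: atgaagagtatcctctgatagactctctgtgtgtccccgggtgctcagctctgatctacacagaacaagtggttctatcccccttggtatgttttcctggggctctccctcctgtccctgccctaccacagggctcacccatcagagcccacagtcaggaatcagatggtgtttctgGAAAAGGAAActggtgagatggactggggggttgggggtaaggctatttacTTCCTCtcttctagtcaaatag
Fcgr2b: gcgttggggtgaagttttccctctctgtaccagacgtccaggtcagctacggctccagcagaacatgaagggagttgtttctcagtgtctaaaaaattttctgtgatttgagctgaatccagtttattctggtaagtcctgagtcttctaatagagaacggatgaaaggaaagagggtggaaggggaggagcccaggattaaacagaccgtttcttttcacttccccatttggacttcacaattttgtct

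The Fcgr1 window held TTCCCAGAA, a match to the gamma-activated site, from 109 to 101 bases before the start, and a PU.1 core read on the other strand as TTCCTC, from 55 to 50 bases before it. The Fcgr4 window held GAAAAGGAAA, a match to the interferon element, from 73 to 64 bases before the start, and a PU.1 core from 22 to 17 bases before it. Neither motif overlapped the other in these windows, and the Fcgr2b, Fcer1g and Fcgrt windows held none of the 3. The PU.1 core was not particular to this pair: the Fcgr3 windows, before both of its RefSeq starts, held it as well, from 6 to 1 and from 15 to 10 bases before the start. The RefSeq windows of Fcgr2b and Fcgr3 lie inside the spans given for these genes. Sequence before the outer ends of those spans was not searched. Of 32817 windows of the same length before annotated starts, 7.01% held the gamma-activated site, 2.97% the interferon element and 23.3% the PU.1 core. Such a match describes letters and is not a measured binding site.

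Genes known to control Fc receptor transcription were mostly lower in value in Lgmn KO without passing the test. Of 17 such genes, 12 were lower in value in Lgmn KO, the median log2 fold change was -0.20, and 0 passed edgeR's quasi-likelihood test, which 0.789% of all tested genes passed (unadjusted p was under 0.05 for 8, against 17.5% of all tested genes, and 4 were called by DESeq2, against 6.41%). Irf1, an interferon-induced transcription factor, was at 12, 13.1 and 18.6 CPM in Lgmn KO, against 37.8, 158 and 80.6 CPM in WT. Its log2 fold change was -2.66 (adjusted p = 0.0575), and the groups did not overlap. Irf1 was highest in WT replicate 2 and, within Lgmn KO, in replicate 4, the order that Fcgr1 also had within each group. That order was not particular to Irf1. Stat3 had it too, as did Adgre1, C1qa and B2m outside this list, while Jak1 and Stat6 did not. The log2 fold change of Stat3 was -0.56 (adjusted p = 0.0909), and Jak1 and Stat6, the most abundant of the list, had -0.02 and 0.02 (adjusted p = 0.907 and 0.901, edgeR quasi-likelihood test).

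Markers of other cells that can carry Fc receptors ranged from near 0 to levels above those of Fcgr1 and Fcgr4, and some were highest in the same library. Summed over 6 dendritic cell markers the level was 3.21 to 5.09 CPM in Lgmn KO, against 5.31 to 15.6 CPM in WT, ranges that did not overlap, with Zbtb46 called lower. Over 9 markers of NK cells, which carry Fcgr3 and the gamma chain, it was 0.0471 to 1.89 CPM in Lgmn KO, against 1.17 to 4.77 CPM in WT, and Ncr1 had 0 counts in every library. The 6 monocyte markers summed to 435 to 546 CPM in Lgmn KO, against 435 to 640 CPM in WT, most of it from Chil3, and Ccr2 was at 4.88 ± 1.35 CPM in Lgmn KO, against 38.1 ± 28.0 CPM in WT (n = 3 each, SD). In each of these 3 lists WT replicate 2 had the highest sum. The 10 neutrophil markers summed to 201 to 232 CPM in Lgmn KO, against 170 to 200 CPM in WT, most of it from Csf3r. These ranges did not overlap, and Lgmn KO was the higher group. The 9 endothelial markers, relevant to Fcgrt and Fcgr2b, summed to 24.7 to 42.8 CPM in Lgmn KO, against 37.8 to 43.4 CPM in WT, with Flt1 called lower and Tek and Emcn at 0 counts in every library. The 10 macrophage markers summed to 20330 to 23575 CPM in Lgmn KO, against 22804 to 24047 CPM in WT, most of it from Lyz2, which encodes lysozyme. The sum therefore does not show how the other markers stood: C1qa, a complement gene, was called lower (log2 fold change -2.37, adjusted p = 0.0486, edgeR quasi-likelihood test), and C1qb and C1qc had -2.03 (adjusted p = 0.0519) and -2.10 (adjusted p = 0.0575). The 6 fibroblast markers summed to 45.4 to 116 CPM in Lgmn KO, against 132 to 180 CPM in WT, ranges that did not overlap, and 6 cardiomyocyte markers to 3.36 to 4.34 CPM in Lgmn KO, against 3.38 to 4.68 CPM in WT. Mast cell markers reached at most 3.29 CPM in any library, with Fcer1a, Ms4a2 and Mcpt4 at 0 counts. The part of these cells, and of the markers of macrophages themselves, in the Fc receptor differences was not tested.

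Fcgr3 encodes the low-affinity activating receptor CD16 and was one of the most abundant of the 6 genes. It lies on the minus strand of chromosome 1 (chr1:171051174-171064935). Its level was 647, 722 and 698 CPM in Lgmn KO, against 626, 927 and 725 CPM in WT. The lowest of all libraries was WT replicate 1 and the highest WT replicate 2, so the WT range enclosed that of Lgmn KO. The means were 689 ± 37.9 CPM in Lgmn KO, against 760 ± 153 CPM in WT (n = 3 each, SD), and the log2 fold change was -0.14 with a 95% interval of -0.46 to 0.18 (edgeR quasi-likelihood test, adjusted p = 0.658). Its sign turned without WT replicate 2, to 0.03 (adjusted p = 0.933).

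Fcer1g encodes the common gamma chain, without which the activating receptors neither reach the surface in full nor signal. It lies on the minus strand of chromosome 1 (chr1:171229572-171234365). Its level was 449, 446 and 468 CPM in Lgmn KO, against 441, 584 and 550 CPM in WT. The coefficient of variation was 2.57% in Lgmn KO, against 14.2% in WT, and WT replicate 1 was the lowest of the 6. The log2 fold change was -0.21 with a 95% interval of -0.46 to 0.04 (edgeR quasi-likelihood test, adjusted p = 0.365), and without WT replicate 1 it was -0.32 (adjusted p = 0.0457).

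Fcgr2b encodes the inhibitory receptor CD32 and was the single member whose groups did not overlap. It lies on the minus strand of chromosome 1 (chr1:170958617-170976547). Its level was 262, 276 and 227 CPM in Lgmn KO, against 323, 340 and 370 CPM in WT, so that the highest Lgmn KO library stood below the lowest WT library. Groups that did not overlap were found for 23.7% of all tested genes, and with Lgmn KO lower for 13.0%. The means were 255 ± 25.2 CPM in Lgmn KO, against 344 ± 23.9 CPM in WT (n = 3 each, SD). The log2 fold change was -0.43 with a standard error of 0.09 and a 95% interval of -0.65 to -0.21 (edgeR quasi-likelihood test, adjusted p = 0.0817), and an unadjusted p smaller than its own was found for 2.40% of all tested genes. It passed with DESeq2 (adjusted p = 0.00432), which called 6.41% of all tested genes. It also passed with limma-voom with sample weights (adjusted p = 0.0422), which called 2.71%. Its value moved little when 1 library was left out, between -0.49 and -0.36. It passed edgeR's test without WT replicate 1 (adjusted p = 0.0435), where 4.99% of all tested genes were called. Without any other 1 library it did not pass edgeR's test (adjusted p = 0.176 to 0.218). With the replicate block its log2 fold change was -0.30 (edgeR, adjusted p = 0.414). The genes nearest to it in pattern were Deptor, which encodes an inhibitor of mTOR kinase (0.04), Cyth3, an exchange factor of ARF proteins (0.06), and Gltscr1 (0.06).

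**Figure D3:**
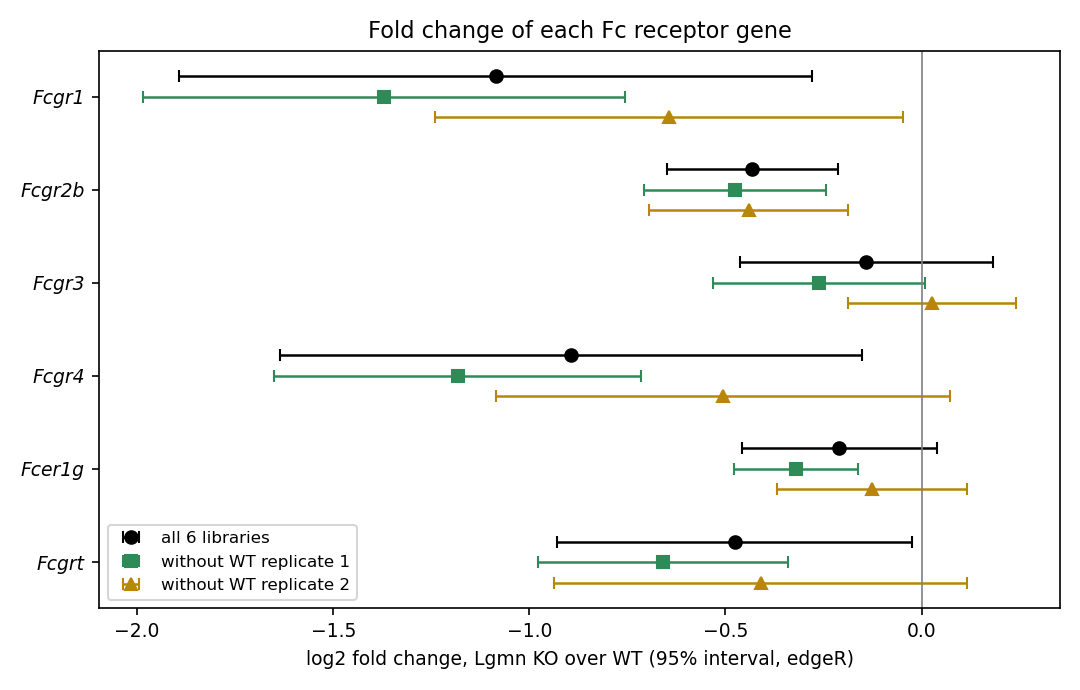
Log2 fold change of each Fc receptor gene, Lgmn KO over WT, with its 95% interval from edgeR, for all 6 libraries (black circles), without WT replicate 1 (green squares) and without WT replicate 2 (gold triangles). The value of Fcgr1 ranged from -1.37 to -0.64 and that of Fcgr4 from -1.18 to -0.51 between these fits, while Fcgr2b stayed between -0.48 and -0.43.

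Fcgr2b and Fcgr3 share much of the sequence that encodes their IgG-binding domains, which bears on how reads are divided between them. In a local alignment of their coding sequences (transcripts Fcgr2b-201 and Fcgr3-201 of GENCODE M21), 96.5% of 509 positions were identical, against 63.4% of 462 for Fcgr2b with Fcgr4 and 59.3% of 454 for Fcgr2b with Fcgr1. The stretch around their longest identical run of 129 bases is shown, with the 6 bases that differ in capitals. It covers coding bases 218 to 466 of Fcgr2b, in exons within chr1:170966614-170968141 of GRCm38, and 203 to 451 of Fcgr3, in exons within chr1:171054107-171057852, both on the minus strand.
Fcgr2b: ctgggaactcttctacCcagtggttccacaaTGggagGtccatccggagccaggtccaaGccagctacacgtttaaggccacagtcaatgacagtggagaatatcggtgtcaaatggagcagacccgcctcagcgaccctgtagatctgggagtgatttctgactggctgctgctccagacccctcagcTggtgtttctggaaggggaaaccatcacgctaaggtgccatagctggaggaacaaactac
Fcgr3: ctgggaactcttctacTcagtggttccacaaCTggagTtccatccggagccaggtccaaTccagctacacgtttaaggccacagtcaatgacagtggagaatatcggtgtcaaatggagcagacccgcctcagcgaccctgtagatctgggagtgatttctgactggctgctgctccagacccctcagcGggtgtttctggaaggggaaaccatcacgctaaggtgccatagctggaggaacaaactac

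A read that falls wholly within such a run cannot be assigned to one of the 2 genes. Of the distinct 50-base words in the annotated transcripts, 166 were common to both genes, which is 2.92% of those of Fcgr2b and 9.58% of those of Fcgr3. For 100-base words the number was 44, or 0.753% of those of Fcgr2b and 2.54% of those of Fcgr3. With any other annotated gene, Fcgr3 included, Fcgr2b shared more, 395 words of 50 bases (6.95%) and 251 words of 100 bases (4.3%). Fcgr1, Fcgr4, Fcer1g and Fcgrt shared 0 words of either length with any other annotated gene. No source used here says how reads with several matches were counted, so the counts of Fcgr2b and Fcgr3 are uncertain in this respect. The shares above do not measure that uncertainty, because they rest on GENCODE M21, with 5790 exonic bases for Fcgr2b and 1736 for Fcgr3. The gene lengths behind the deposited values are 7526 and 3829 bases. An antisense gene, Gm38204, overlaps 155 exonic bases of Fcgr2b and had 0 counts in all 6 libraries.

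Fcgrt encodes the heavy chain of FcRn, which unlike the other receptors binds IgG inside the cell and resembles an MHC class I molecule. It lies on the minus strand of chromosome 7 (chr7:45092993-45103822). It was the lowest of the 6, with 10.9, 13.1 and 10.9 CPM in Lgmn KO, against 11.8, 17.7 and 19.1 CPM in WT, so the groups overlapped through WT replicate 1. The log2 fold change was -0.48 with a 95% interval of -0.93 to -0.02 (edgeR quasi-likelihood test, adjusted p = 0.265), and without WT replicate 1 it was -0.66 (adjusted p = 0.0424). B2m, which encodes the light chain of FcRn and of MHC class I, was at 1421, 1923 and 2061 CPM in Lgmn KO, against 1927, 3039 and 2433 CPM in WT, and the log2 fold change was -0.45 (adjusted p = 0.278). The ratio of Fcgrt to B2m FPKM averaged -8.28 ± 0.27 on the log2 scale in Lgmn KO and -8.27 ± 0.23 in WT (SD, n = 3 each). Of 6 genes of the light chain and its other partners, 5 were lower in value in Lgmn KO, the median log2 fold change was -0.38, and 0 passed edgeR's quasi-likelihood test (unadjusted p was under 0.05 for 3, against 17.5% of all tested genes, and 2 were called by DESeq2, against 6.41%). The iron regulator Hfe had -1.70 (adjusted p = 0.0555), the class I gene H2-K1 -0.67 (adjusted p = 0.0916) and the most abundant member H2-D1 -0.21 (adjusted p = 0.344).

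Levels of different genes were compared per length with the deposited FPKM values (fragments scaled by gene length and library size). In all 6 libraries the order was Fcer1g first, then Fcgr3, Fcgr4, Fcgr1 and Fcgr2b in either order, and Fcgrt last. Fcer1g was at 281 ± 5.6 FPKM in Lgmn KO and 328 ± 43.1 FPKM in WT, and Fcgr3 at 179 ± 10.3 FPKM in Lgmn KO and 199 ± 38.5 FPKM in WT (SD, n = 3 each). Fcgr4 was at 57.4 ± 9.34 FPKM in Lgmn KO and 107 ± 48.6 FPKM in WT. Fcgr1 was at 32.6 ± 8.05 FPKM in Lgmn KO and 69.7 ± 33.7 FPKM in WT, and Fcgr2b at 33.7 ± 3.54 FPKM in Lgmn KO and 45.9 ± 2.71 FPKM in WT, so the levels of these neighbours in the order did not differ beyond the spread between libraries. Fcgr1 was above Fcgr2b in 3 of the 6 libraries. Fcgrt was at 6.67 ± 0.778 FPKM in Lgmn KO and 9.33 ± 2.14 FPKM in WT. The table's FPKM imply lengths that differ from the exonic lengths of GENCODE M21 (for Fcgr3 3829 bases in the table and 1736 in M21), but the order was the same in all 6 libraries with the M21 lengths.

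**Figure D4:**
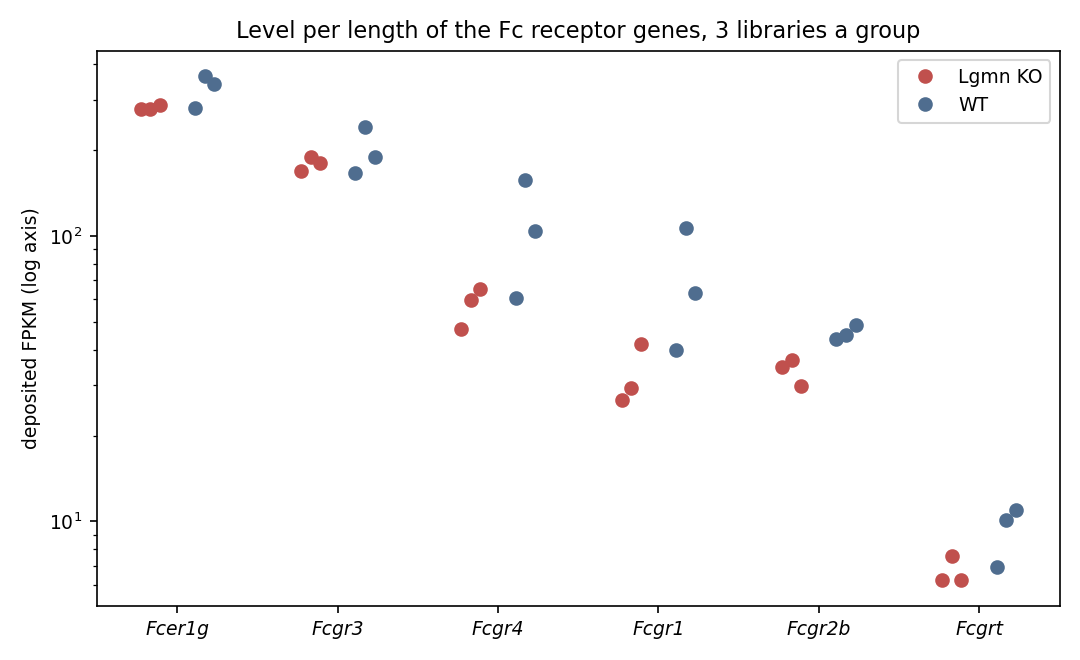
Deposited FPKM (log axis) of the Fc receptor genes, ordered by mean level, with the 3 Lgmn KO libraries (red) left of the 3 WT libraries (blue). Fcer1g and Fcgr3 lay above 100 FPKM in every library, and Fcgrt lay between 6.21 and 10.9 FPKM.

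The balance of activating to inhibitory receptor transcripts overlapped between the groups. The FPKM of Fcgr1, Fcgr3 and Fcgr4, summed, was 6.98, 7.57 and 9.63 times that of Fcgr2b in Lgmn KO and 6.11, 11.2 and 7.27 times in WT. Both the lowest and the highest of these ratios were in WT. On the log2 scale the ratio averaged 3.0 ± 0.24 in Lgmn KO and 2.99 ± 0.45 in WT (SD, n = 3 each), and no test was made of it. Fcgr3 alone was 4.85, 5.14 and 6.04 times Fcgr2b in Lgmn KO and 3.81, 5.36 and 3.85 times in WT, while Fcgr1 was 0.768, 0.801 and 1.40 times Fcgr2b in Lgmn KO and 0.914, 2.36 and 1.29 times in WT. The size of such ratios rests on the gene lengths in the table, 3829 bases for Fcgr3 and 7526 for Fcgr2b, where GENCODE M21 has 1736 and 5790. Without any length, the CPM of Fcgr3 was 2.47, 2.61 and 3.07 times that of Fcgr2b in Lgmn KO and 1.94, 2.73 and 1.96 times in WT. The gamma chain was 1.15, 1.00 and 1.00 times the summed activating receptors in Lgmn KO, against 1.05, 0.719 and 0.959 times in WT. WT replicate 2 thus had the most activating receptor per inhibitory receptor and the least gamma chain per activating receptor.

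Transcripts of the signalling chain behind the receptors differed less than those of Fcgr1 and Fcgr4. Of 32 kinases, adaptors, lipid enzymes and phosphatases, 25 were lower in value in Lgmn KO, the median log2 fold change was -0.11, and 0 passed edgeR's quasi-likelihood test (unadjusted p was under 0.05 for 12, against 17.5% of all tested genes, and 4 were called by DESeq2, against 6.41%). The values ran from -0.57 to 0.35. Fgr, a Src-family kinase of myeloid cells, was at 94.4, 101 and 97.6 CPM in Lgmn KO, against 120, 135 and 128 CPM in WT, and the log2 fold change was -0.39 (adjusted p = 0.0575), with groups that did not overlap. Blnk and Lat2, which encode adaptors, had positive values of 0.35 (adjusted p = 0.0769) and 0.34 (adjusted p = 0.0867). Syk, the kinase that docks on the gamma chain and the most abundant member, was at 722 ± 30.9 CPM in Lgmn KO, against 691 ± 15.0 CPM in WT (n = 3 each, SD), and the log2 fold change was 0.06 (adjusted p = 0.665). The ubiquitin ligase Cbl had -0.02 (adjusted p = 0.947).

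Of 11 tested receptors that pair with the gamma chain or with the related adaptor DAP12, and DAP12's own gene, 1 fell, against 0.478% of all tested genes. Clec4n, which encodes the fungal receptor dectin-2 and signals through the gamma chain, was at 18.7, 13.0 and 17.1 CPM in Lgmn KO, against 45.8, 57.5 and 37.9 CPM in WT, with a log2 fold change of -1.53 (edgeR quasi-likelihood test, adjusted p = 0.0259). No gene of the list was called when any 1 Lgmn KO library was left out or with the replicate block, which ends the Clec4n call, and 3 were called without WT replicate 1, against 4.99% of all tested genes. Clec4e, which encodes mincle, a gamma-chain receptor of damaged cells and mycobacteria, had -0.94 (adjusted p = 0.0519). Tarm1 had -2.19 (adjusted p = 0.0747) at low means of 0.489 CPM in Lgmn KO, against 2.26 CPM in WT. Tyrobp, which encodes DAP12, had -0.04 (adjusted p = 0.938), and its partner Trem2 had 0.23 (adjusted p = 0.135). The list's median was -0.04, 6 members were negative, unadjusted p was under 0.05 for 5, against 17.5% of all tested genes, and 4 were called by DESeq2, against 6.41%.

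Of 12 other inhibitory receptors, 8 were lower in value in Lgmn KO, the median log2 fold change was -0.50, and 0 passed edgeR's quasi-likelihood test (unadjusted p was under 0.05 for 8, against 17.5% of all tested genes, and 5 were called by DESeq2, against 6.41%). Sirpa, which encodes the receptor of the signal CD47 and was the most abundant, was at 1397 ± 33.3 CPM in Lgmn KO, against 1573 ± 87.3 CPM in WT (n = 3 each, SD), and the log2 fold change was -0.17 (adjusted p = 0.258). Pecam1 had -2.52 (adjusted p = 0.0769) at means of 0.233 CPM in Lgmn KO, against 1.35 CPM in WT, Pilra -2.32 (adjusted p = 0.0727) and the lectin Clec4a2 -1.28 (adjusted p = 0.0754), while Lilrb4a, the second most abundant, had 0.09 (adjusted p = 0.683). Receptors of other immunoglobulin classes and Fc receptor-like genes were scarce: 4 of 12 could be tested and 0 passed (unadjusted p was under 0.05 for 2, against 17.5% of all tested genes, and 1 were called by DESeq2, against 6.41%). They included Trim21, the receptor for antibodies in the cytosol, at -0.53 (adjusted p = 0.252), Fcrls at -1.56 (adjusted p = 0.0727) and Fcrl1 at -0.33 (adjusted p = 0.660). Genes of the actin machinery that closes the phagocytic cup had a median of 0.02 over 23 tested members, of which 9 were negative, and 0 passed (unadjusted p was under 0.05 for 2, against 17.5% of all tested genes, and 0 were called by DESeq2, against 6.41%). Actb had -0.30 (adjusted p = 0.469) and Myo1f, a myosin of leukocytes, 0.21 (adjusted p = 0.195).

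**Figure D5:**
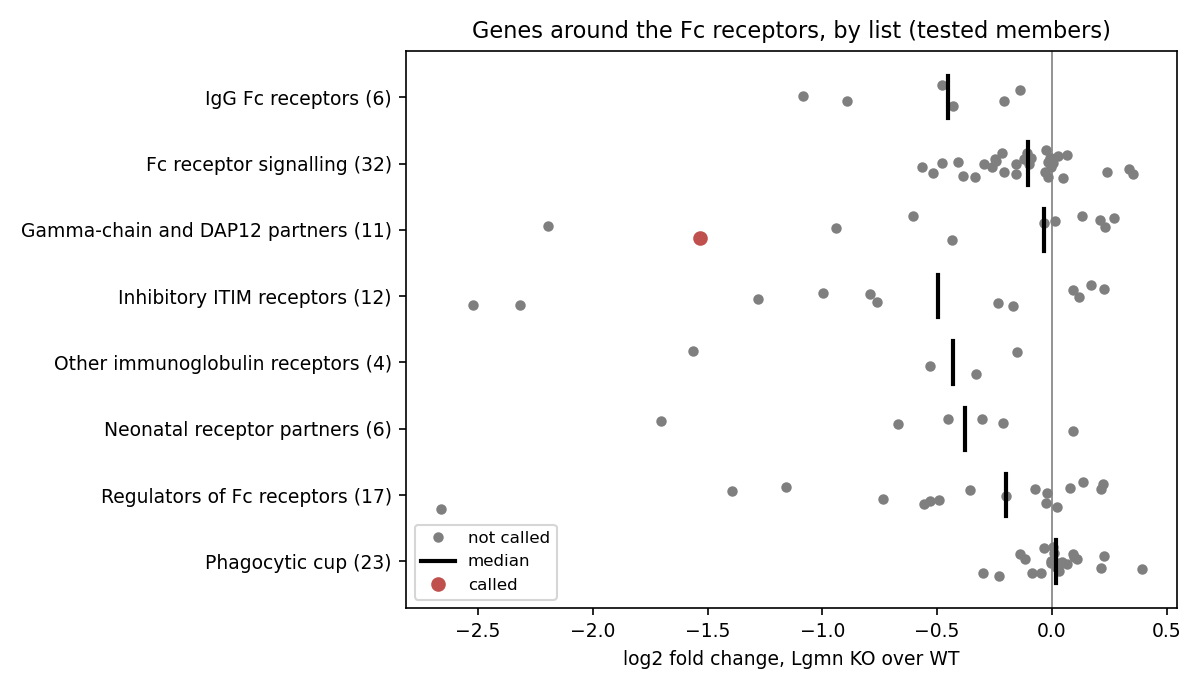
Log2 fold change, Lgmn KO over WT, of the tested genes in each list around the Fc receptors (each point 1 gene, the black bar the median, the number tested in parentheses), with genes past an adjusted p of 0.05 in red. Clec4n is the only red point, and the medians run from -0.50 for the inhibitory receptors to 0.02 for the phagocytic cup.

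Of the receptors, 3 have a q-value under 0.05 in the authors' deposited table. The authors' deposited table lists a log2 fold change of -1.10 and a q-value of 0.00533 for Fcgr1, and marks it as down. The authors' deposited table lists -0.90 with a q-value of 0.0234 for Fcgr4 and -0.44 with a q-value of 0.0465 for Fcgr2b, and marks neither, as all genes it marks have an absolute log2 fold change of at least 1.00. In the authors' deposited table the q-values of Fcgr3, Fcer1g and Fcgrt are 0.921, 0.699 and 0.357. The sources used here do not name the authors' test, and of 17476 genes with a q-value in the authors' deposited table, 666 are under 0.05.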

How the data were processed

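Messenger RNA was sequenced from macrophages sorted from mouse hearts, 3 libraries of Lgmn KO and 3 of WT, grouped by title and genotype. The deposited table holds whole-number read counts and FPKM per gene and library, per the file headers. FPKM equals the count over a gene length and the library total. The authors' group mean FPKM, log2 fold change, p-value and q-value stand in the same deposited table and are quoted only as theirs. Tools named in the submitters' processing notes are HISAT2, TopHat2 (2.0.9) plus TopHat, with the build hg38, while gene IDs and positions are those of mouse GRCm38. The sources used here name neither the counter nor its strand setting.

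Counts were filtered with filterByExpr, scaled by TMM and tested in R 4.3.3 with edgeR 4.0.16 (glmQLFit, then glmQLFTest) without covariates, with Benjamini-Hochberg adjustment over 12546 genes. Standard errors and intervals came from the F statistic. No test was run on FPKM. Alternatives used DESeq2 1.42.0, limma 3.58.1, other scalings and filters, single libraries left out and a replicate block. The procedure was tested on simulated data. Between libraries of one group, chi-square over degrees of freedom was 14.0 to 42.7, so each was counted once.

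The receptors and lists were chosen with earlier results of these data known. Of 206 list entries, 204 matched the table by symbol, 1 by symbol and gene ID, and 1 was not found. Named are the 6 receptors, Lgmn, and from each list called members, those of smallest p and of highest level, with the 3 genes nearest in pattern to a receptor. Named outside that rule are Mertk, Csf1r, Adgre1, Itgam, Ptprc, Ighg2b, Ighg2c and markers at 0 counts, chosen after their values were seen. Motifs were searched in RefSeq promoter windows, and shared words in GENCODE M21 transcripts. A gene of the regulator list is not reported here by name.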

Additional observations from a re-analysis of the deposited data

How the results depend on the processing

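Over 15 other settings, 89 of 90 fold changes of the 6 receptors stayed negative. The exception was Fcgr3, at 0.027 without WT replicate 2. Of the 90, 9 passed their threshold. Of these, 5 were in the fit without WT replicate 1, which called 4.99% of all tested genes. The threshold of 0.1 reused the main fit, so its fold changes could not differ. The other scalings and filters used the same 6 libraries. Fcgr2b passed with DESeq2 (-0.42), limma-voom with sample weights (-0.48) and a threshold of 0.1 (-0.43), and Fcgr4 with DESeq2 (-0.88). Members called numbered 2 of 6 with DESeq2, 1 with limma-voom and 1 at the threshold of 0.1. The shares called over all tested genes were 6.41%, 2.71% and 4.01%. With 1 library left out the log2 fold change ran from -1.37 to -0.64 for Fcgr1, -0.49 to -0.36 for Fcgr2b, -0.26 to 0.03 for Fcgr3, -1.18 to -0.51 for Fcgr4, -0.32 to -0.13 for Fcer1g and -0.66 to -0.34 for Fcgrt, and 0 to 5 members were called. Calls over all genes, 99 in the main test (39 higher, 60 lower), were 165 with library totals (47 higher, 118 lower), 318 without a filter, 55 with a floor of 5 CPM, 804 with DESeq2, 340 with limma-voom, 503 at the threshold of 0.1 and 6 to 639 with 1 library left out. DESeq2 called 6.41% of all tested genes. Of the tested list genes it called 4 of 32 in the signalling list, 4 of 11 gamma-chain partners and 5 of 12 inhibitory receptors. It also called 1 of 4 other immunoglobulin receptors, 2 of 6 partners of FcRn and 4 of 17 regulators. With 1 library left out these lists gave 0 to 4, 0 to 3, 0 to 5, 0 to 1, 0 to 1 and 0 to 4 calls. The highest count of each list came without WT replicate 1, where 4.99% of all tested genes were called. The causes were not tested.

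Replicate numbers 1 and 2 occur in both groups, and the labels do not pair them. Deviations from the group means correlated across genes at 0.12 for number 1 and 0.08 for number 2, and pairs of unlike number ran from -0.17 to 0.11. With these numbers as a replicate block, 33 genes were called, against 4 in the same 4 libraries without the block, a fit added after seeing the data. With the block 0 receptors and 0 gamma-chain partners were called. The block gave log2 fold changes of -1.21 for Fcgr1, -0.30 for Fcgr2b, -0.16 for Fcgr3, -0.87 for Fcgr4, -0.18 for Fcer1g and -0.28 for Fcgrt. The order of levels with GENCODE M21 lengths was also added after seeing the data.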

Other observations

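Transcripts of IgG heavy chains, the ligand side, were at or near 0 in the sorted cells, while those of other antibody chains were found. Ighg1, which encodes the heavy chain of an IgG subclass, had 0 counts in every library, and Ighg2b and Ighg2c stayed at or below 0.296 CPM. Ighm, the heavy chain of IgM, was at 8.09, 6.44 and 8.72 CPM in Lgmn KO, against 5.21, 7.22 and 15.0 CPM in WT. Summed over 12 B cell and plasma cell genes, the level was 10.7 to 15.1 CPM in Lgmn KO and 8.62 to 25.4 CPM in WT, and none of the 4 tested members passed edgeR's test.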
